A study of Homo sapiens with 12 samples.

Results

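The 10 genes described here are Eph receptors and ephrins: the receptors EPHA1, EPHA2, EPHA3, EPHA4, EPHA7, EPHB2 and EPHB3 and the ligands EFNA1, EFNB1 and EFNB2. They are 10 of the 30505 genes with an Entrez identifier on the array, and they were found by symbol and Entrez identifier. The family was chosen by measured values of EPHA4, whose signal was higher with doxycycline at both days and lower after LHX2 knockdown. Those 3 differences of EPHA4 are therefore given as a description, with no test. Of the 10 genes, 8 were detected on both arrays of at least 1 group and entered the tests, and EPHA3 and EPHA7 did not.

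Eph receptors are receptor tyrosine kinases, and their ligands, the ephrins, sit on the surface of neighbouring cells. A-class ephrins are held in the membrane by a lipid anchor and B-class ephrins cross it, and EPHA4 is known for binding ligands of both classes. Contact signals into the receptor-bearing cell and into the ephrin-bearing cell, which sets boundaries between groups of cells, guides axons and, in the developing forebrain and eye, patterns the neural tissue. LHX2, the transcription factor perturbed in the series, is a LIM-homeodomain protein of the eye field and cortex.

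The data are 12 Illumina bead arrays of total RNA from H9, an established human embryonic stem cell line, in a series on LHX2 in neural differentiation. In the overexpression arm, LHX2 cells without doxycycline (dox-minus) and with 3 days of it (dox-plus) were collected at day 4 and at day 16, so 1 day and 13 days past the end of the drug. For the knockdown, cells with a short hairpin RNA against LHX2 (shLHX2) or against luciferase (shLuc) had undergone neural induction for 12 days. There are 6 groups of 2 arrays, stated to be biological duplicates. The series text names GFP as the overexpression control, but these arrays are labelled only as LHX2 cells with and without the drug, so an effect of doxycycline and one of LHX2 cannot be told apart. Whether the cells were a clone or a pool of clones is not known here. In such bulk RNA, fewer cells of a type and less RNA per cell cannot be told apart.

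The promoters of EPHA4 and EFNB1 are shown because these 2 members had higher signals with doxycycline at both days. Each sequence is the 250 bases before a RefSeq transcription start in GRCh38.p14, written 5′ to 3′ on the strand of the gene. Capitals mark TAAT on either strand, the core that LIM-homeodomain proteins are known to bind. EPHA4 has 2 such windows on the minus strand, at chr2:221572305-221572554 and chr2:221574203-221574452. EFNB1 has 1 on the plus strand, at chrX:68828771-68829020.
EPHA4 first window: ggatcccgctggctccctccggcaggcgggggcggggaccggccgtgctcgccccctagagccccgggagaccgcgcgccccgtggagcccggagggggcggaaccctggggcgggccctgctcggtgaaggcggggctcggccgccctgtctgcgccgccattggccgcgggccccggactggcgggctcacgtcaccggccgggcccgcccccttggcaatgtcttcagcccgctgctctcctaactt
EPHA4 second window: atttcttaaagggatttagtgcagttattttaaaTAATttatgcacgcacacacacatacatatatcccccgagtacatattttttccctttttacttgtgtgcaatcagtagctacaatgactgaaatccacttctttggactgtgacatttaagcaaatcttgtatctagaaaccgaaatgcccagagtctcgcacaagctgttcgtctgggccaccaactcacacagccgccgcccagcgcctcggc
EFNB1: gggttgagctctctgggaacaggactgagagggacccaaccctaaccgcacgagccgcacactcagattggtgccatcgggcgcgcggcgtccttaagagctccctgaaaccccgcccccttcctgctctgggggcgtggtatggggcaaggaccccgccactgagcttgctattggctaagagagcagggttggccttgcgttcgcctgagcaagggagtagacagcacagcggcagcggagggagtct
The first EPHA4 window holds 78% G and C and no TAAT, while the second holds 43.2% G and C and 1 TAAT, which lies 213 bases before the start. The EFNB1 window holds 63.6% G and C and no TAAT. Over the 10 members, 5 of 14 windows held TAAT, and 47.4% of all 35116 RefSeq windows of 250 bases did. The longer TAATTA was in 0 of the 14 windows and in 4.35% of all. A match describes letters only, and the array data do not show binding.

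The arrays detected between 19050 and 20489 of 47227 probes, at a detection p under 0.01. Correlations across genes were 0.976 to 0.994 within groups and 0.9015 to 0.9889 between groups, so the ranges overlapped. The targeted gene LHX2 was read by 1 probe, starting at base 2100 of its transcript. Its normalized log2 signal was 7.34 and 8.08 in shLHX2 and 9.76 and 9.72 in shLuc cells, a log2 difference of -2.03 ± 0.27 (SE, n = 2 against 2, limma adjusted p = 0.00582). The knockdown arrays thus carried less LHX2 signal, as labelled, although this call was lost when any of 3 of the 4 arrays was left out (adjusted p up to 0.107). In the overexpression arm LHX2 read 5.23 and 4.87 in dox-minus against 6.04 and 5.45 in dox-plus cells at day 4, and 12.18 and 11.91 against 12.78 and 13.03 at day 16. Neither difference passed the test (adjusted p = 0.273 and 0.0573). At day 4 LHX2 was detected on 1 array alone, the first of dox-plus, so that difference lies near the detection limit. The sources used here do not say whether the introduced LHX2 carries the probe's sequence, so these values do not check the doxycycline labels. The pluripotency markers fixed for the line, such as POU5F1 and NANOG, were detected on both arrays of each day 4 group in 8 of 8 cases. The same held in dox-minus day 16, shLHX2 and shLuc cells, and for 7 of 8 in dox-plus day 16 cells. Detection of these markers thus does not set the day 4 cells apart.

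EPHA4, a receptor known for repelling growing axons and for shaping boundaries in the hindbrain and forebrain, was detected on 12 of 12 arrays by its 1 probe (ILMN_1672022, Entrez gene 2043). At day 4 its normalized log2 signal was 6.36 and 6.51 in dox-minus and 7.80 and 7.95 in dox-plus cells. At day 16 it was 10.10 and 10.56 without and 11.57 and 11.45 with the drug. After knockdown it was 8.59 and 8.58, against 9.99 and 10.20 in shLuc cells. The perturbed and control arrays did not overlap in any of the 3 comparisons. EPHA4 was chosen by these differences, so this separation is a description. In the knockdown the arrays of 48% of all genes did not overlap either. For the doxycycline comparisons that share was not counted. On the deposited, unnormalized scale the same arrays read 126.1 and 125.1 against 323.9 and 307 at day 4, and 385.7 and 395.5 in shLHX2 against 1199 and 1247.7 in shLuc cells.

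The log2 difference of EPHA4 with doxycycline was 1.44 ± 0.20 at day 4 (SE of the limma fit, n = 2 against 2), or 2.71-fold. At day 16 it was 1.18 ± 0.20, or 2.26-fold. With shLHX2 the difference was -1.51 ± 0.20, or 2.84-fold lower. Among the 15650 genes tested, EPHA4 had the 35th highest difference at day 4, the 307th highest at day 16 and the 18th lowest after knockdown. Of the 6 groups, the arrays of dox-minus day 16, at 10.10 and 10.56, lay furthest apart. Leaving out each array in turn gave 0.95 to 1.41 at day 16, 1.36 to 1.52 at day 4 and -1.61 to -1.40 for the knockdown. The day 16 effect minus the day 4 effect was -0.26 ± 0.28.

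**Figure D1:**
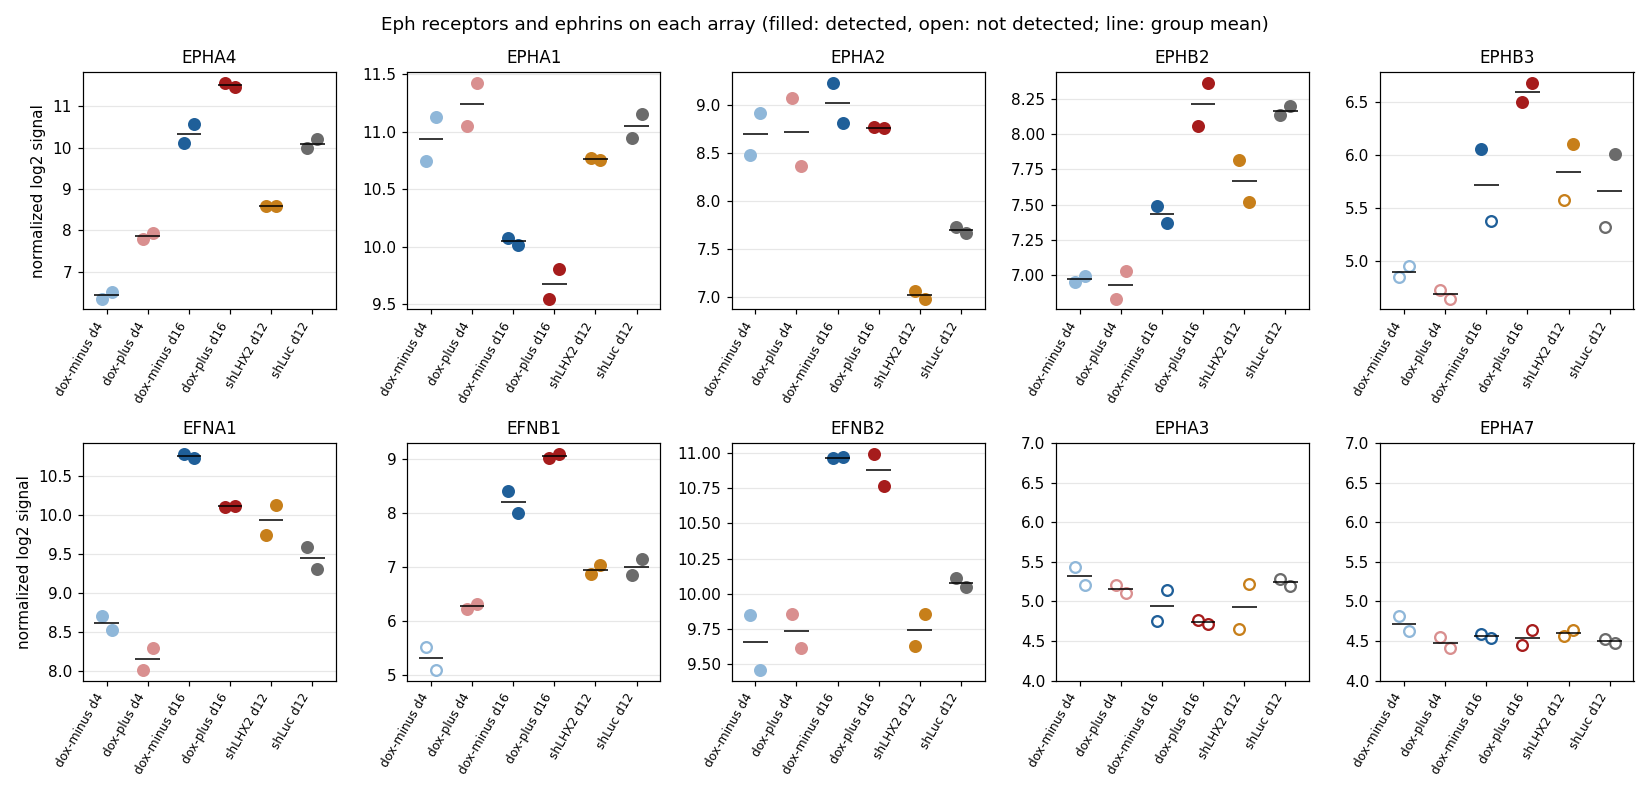
Normalized log2 signal of the 10 members (vertical axes, scaled separately for each gene) in the 6 groups (horizontal axes), with 1 point per array and a line at each group mean. EPHA4 ranges from 6.36 on a dox-minus day 4 array to 11.57 on a dox-plus day 16 array, and EPHA3 and EPHA7 are open circles, meaning not detected, throughout.

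Ordered by group mean, EPHA4 ran from dox-minus day 4 at 6.43 ± 0.11 (SD, n = 2) through dox-plus day 4 at 7.87 ± 0.10, shLHX2 at 8.59 ± 0.01, shLuc at 10.09 ± 0.15 and dox-minus day 16 at 10.33 ± 0.32 to dox-plus day 16 at 11.51 ± 0.08. Of the neighbours in this order, only shLuc and dox-minus day 16 overlapped. The comparison of the days was not used to choose EPHA4 and was tested. It uses the same arrays as the doxycycline differences that were used, so it is not independent of that choice. Between day 4 and day 16 EPHA4 rose by 3.90 ± 0.20 log2 units in dox-minus cells, or 14.9-fold (limma adjusted p = 9.19e-08). In dox-plus cells it rose by 3.64 ± 0.20, or 12.4-fold (adjusted p = 1.64e-07). These increases ranked 52nd and 64th highest of 15650 genes.

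Among the other 9 members, 7 were tested against doxycycline at day 4, and 1 was called higher and 0 lower at an adjusted p under 0.05. Over all genes 1.94% were called at day 4, 1.34% higher and 0.601% lower, a split of 210 to 94 that depends on scaling, since 366 of 420 calls were higher with median scaling. The 304 calls fell to 64 with only the groups compared and to 28 to 142 when 1 of the 4 arrays was left out, so this share is itself uncertain. The median log2 difference of the 7 genes was 0.02, beside -0.01 for all genes. The called member was EFNB1, a transmembrane ligand known for boundary formation in the face and brain. Its signal was 5.52 and 5.09 in dox-minus cells, where it was not detected, and 6.21 and 6.31 in dox-plus cells, where it was. The dox-plus mean was at least 1.51-fold higher, set against the lowest signal among probes detected on the dox-minus arrays. The measured log2 difference was 0.96 ± 0.21 (limma adjusted p = 0.0435), and 0.45 with no background correction, so the bound holds for corrected signals. This call lies close to the threshold and was lost when any 1 of the 4 arrays was left out (adjusted p 0.0992 to 0.341) and under 10 of 13 other alternatives, such as no background correction (0.182).

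The remaining members showed no called difference at day 4. The receptor EPHB2, known for axon guidance and in mice, for sorting cells in the gut, read 6.95 and 6.99 in dox-minus and 6.83 and 7.03 in dox-plus cells, and these overlapped. A second EPHB2 probe differed the other way, by 0.61 ± 0.21 (adjusted p = 0.215 over all kept probes), against -0.04 ± 0.19 for the probe used, whose sign turned with median scaling (0.15). EFNA1, an A-class ligand that binds EPHA2 and EPHA4, read 8.70 and 8.53 without and 8.02 and 8.30 with the drug. Its arrays did not overlap, but the difference of -0.46 ± 0.20 was not called (adjusted p = 0.325). EPHA2, EPHA1 and the transmembrane ligand EFNB2 each had overlapping arrays, with differences of 0.02 ± 0.25, 0.30 ± 0.21 and 0.08 ± 0.20. EPHB3, also among the 7 tested, was not detected on any day 4 array. It read 4.84 and 4.95 without and 4.72 and 4.64 with the drug, so its difference of -0.21 ± 0.28 is between undetected signals.

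EPHB3, a B-class receptor like EPHB2, was detected on both arrays of the dox-plus day 16 group alone and entered the fit only through it, so its differences from that group are given with no test. At day 16, 2 of the other 6 members were called higher with doxycycline and 0 lower, where 13.7% of all genes were called, 6.08% higher and 7.63% lower. The median difference of the 6 was -0.17, beside 0.02 for all genes. EFNB1 read 8.40 and 7.996 in dox-minus and 9.02 and 9.09 in dox-plus cells, a log2 difference of 0.86 ± 0.21, or 1.81-fold (limma adjusted p = 0.0202). EPHB2 read 7.49 and 7.37 against 8.06 and 8.37, a difference of 0.78 ± 0.19, or 1.72-fold (adjusted p = 0.0178). In both genes the dox-plus arrays lay above the dox-minus arrays. The second EPHB2 probe differed by 0.81 ± 0.21 (adjusted p = 0.0258 over all kept probes). Both calls depend on single arrays. Of the 4 arrays, 3 took the EFNB1 call away when left out (adjusted p 0.0807 to 0.0971), and 3 took that of EPHB2 (0.0512 to 0.126).

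EPHB3 read 6.06 and 5.37 without and 6.50 and 6.69 with doxycycline, and the first dox-minus array detected it while the second did not. Its difference was 0.88 ± 0.28. EFNA1 lay lower with doxycycline, at 10.10 and 10.12 against 10.78 and 10.72, with no overlap. Its difference of -0.64 ± 0.20 was just above the threshold (adjusted p = 0.0534), while its second probe differed by -0.72 ± 0.21 (adjusted p = 0.0392 over all kept probes). EPHA1, EPHA2 and EFNB2 were not called, with differences of -0.37 ± 0.21, -0.26 ± 0.25 and -0.09 ± 0.20.

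Markers of other cell types moved at day 16 as well. In dox-plus cells, 9 of 9 mesenchyme and mesoderm markers were lower, with a summed unlogged signal of 36627 to 40005 in dox-minus and 9102 to 9175 in dox-plus arrays. Of 8 tested neural progenitor markers, 6 were higher, with sums of 11865 to 12291 against 36269 to 37946, and SOX1 was not detected in any group. Of 4 tested endothelial markers 3 were lower, and PECAM1 and TIE1 were not detected in any group. All 3 tested endoderm markers were lower. The sums over the whole list of 5 were 728.3 to 841.8 in dox-minus and 138.0 to 148.1 in dox-plus arrays. In dox-plus cells 0 of the 5 were detected, so that sum is of undetected signals. In dox-minus cells 1 of the 5 was detected on both arrays. Of 5 neuron markers 2 were higher and 2 lower, and of 5 surface ectoderm markers 2 were lower. Among the 8 pluripotency markers POU5F1 and NANOG were lower and SOX2 was higher. The sums of that list were 23560 to 26298 in dox-minus and 30879 to 33202 in dox-plus arrays. The part of these shifts in the Eph and ephrin differences was not tested. At day 4 only ACTA2 and TEK were lower and VWF higher among all these markers, and the mesenchyme sums overlapped.

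**Figure D2:**
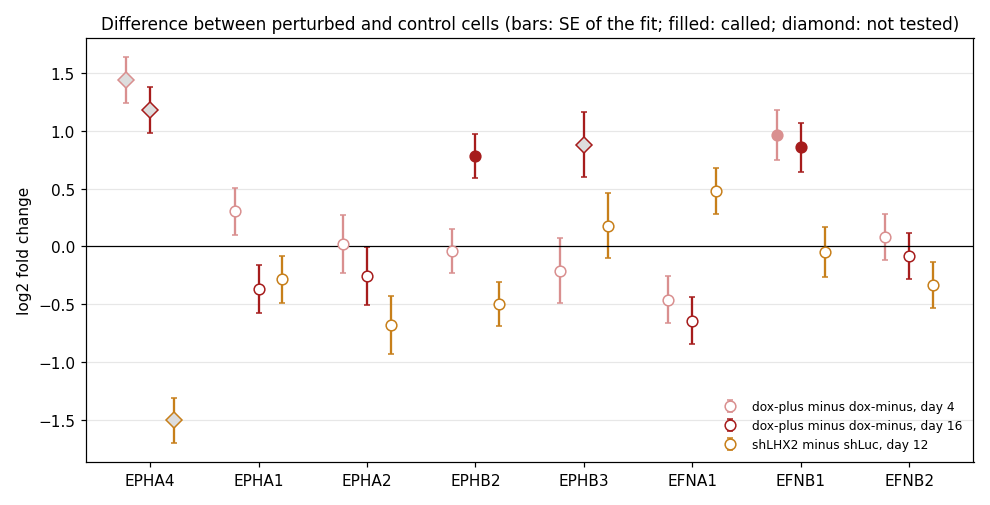
Log2 difference between perturbed and control cells (vertical axis) for the 8 tested members (horizontal axis), with bars of 1 SE of the limma fit. Filled circles passed an adjusted p under 0.05, open circles did not, and grey diamonds were not tested (EPHA4, and EPHB3 at day 16). EPHA4 stands at 1.44, 1.18 and -1.51, and the filled circles are EFNB1 at both days and EPHB2 at day 16.

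The difference between the doxycycline effects of the days was called for 0 of the 6 members other than EPHA4 and EPHB3 by limma, where 7.83% of all genes were called, 3.16% higher and 4.67% lower. At an unadjusted p under 0.05, 2 members passed, as did 23.1% of all genes. They were EPHB2, with 0.82 ± 0.27 (adjusted p = 0.0900), and EPHA1, with -0.67 ± 0.29 (0.195). The second EPHB2 probe gave only 0.20 ± 0.30 (limma adjusted p = 0.727 over all kept probes), so the EPHB2 value depends on the probe. For EFNB1 the effects of the days differed by -0.10 ± 0.30 (95% interval -0.76 to 0.56). The 2 doxycycline comparisons share no array, but each shares its arrays with the comparisons of the days.

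After knockdown, 0 of the 7 tested members were called by limma, where 0.543% of all genes were called, 0.249% higher and 0.294% lower. At an unadjusted p under 0.05, 3 members passed, as did 10.2% of all genes. The 85 calls over all genes became 10 to 25 when 1 of the 4 arrays was left out and 417 with array weights. The median difference of the 7 was -0.29, beside 0.01 for all genes. EPHA2, a receptor known for binding EFNA1 in epithelia, read 7.06 and 6.99 in shLHX2 and 7.73 and 7.67 in shLuc cells, a difference of -0.68 ± 0.25 (95% interval -1.22 to -0.14, adjusted p = 0.351). EPHB2 read 7.81 and 7.52 against 8.14 and 8.20, a difference of -0.50 ± 0.19 (-0.92 to -0.09, adjusted p = 0.373). EFNA1 read 9.74 and 10.12 against 9.59 and 9.31, a difference of 0.48 ± 0.20 (adjusted p = 0.439). The arrays of the groups did not overlap in 5 of the 7 members, EPHA1 and EFNB2 included, nor in 48% of all genes.

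EFNB1, which was called with doxycycline at both days, read 6.86 and 7.04 in shLHX2 and 6.85 and 7.14 in shLuc cells. These overlapped, and the difference was -0.05 ± 0.21 (95% interval -0.52 to 0.42, adjusted p = 0.967). EFNB2 read 9.63 and 9.86 against 10.11 and 10.05, a difference of -0.33 ± 0.20. EPHA1 was at -0.29 ± 0.21 and EPHB3 at 0.18 ± 0.28, each with adjusted p above the threshold. Among the markers, the neural progenitor gene PAX6 was lower, 1 of 8 tested, and the sums of that list were 8154 to 8789 in shLHX2 and 10337 to 12224 in shLuc cells. DCN was higher among 9 mesenchyme markers, whose sums were 5412 to 7889 against 4888 to 4979. TEK and APOA1 were lower in the endothelial and endoderm lists. The part of these in the values of the receptors and ligands was not tested.

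Most members changed with time. In dox-minus cells, 4 of the 8 tested members rose between day 4 and day 16 and 1 fell, where 18.1% of all genes were called, 9.71% higher and 8.35% lower. In dox-plus cells, 5 of 7 rose and 1 fell, with EPHB3 left out, where 36.6% of all genes were called, 17.8% higher and 18.9% lower. The median was 1.07 log2 units over the 8 genes and 1.28 over the 7, beside -0.04 and -0.01 for all genes. EFNB1 and EPHB3 were not detected in dox-minus cells at day 4. Without EPHA4, 3 of 7 members rose and 1 fell in dox-minus cells, and 4 of 6 rose and 1 fell in dox-plus cells. The time comparisons use the same arrays as the doxycycline comparisons, so their values for a gene are not independent.

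The 3 ligands rose in both arms. EFNB1 was at least 5.77-fold higher at day 16 in dox-minus cells on corrected signals (limma adjusted p = 1.98e-06). Its log2 difference was 2.90 ± 0.21, or 1.80 at the lowest among the alternatives, and in dox-plus cells it rose by 2.79 ± 0.21 log2 units, or 6.93-fold (adjusted p = 2.04e-06). EFNA1 rose by 2.13 ± 0.20, or 4.39-fold, in dox-minus cells (adjusted p = 1.58e-05) and by 1.95 ± 0.20, or 3.87-fold, in dox-plus cells (1.93e-05). EFNB2, a ligand of EPHB receptors and EPHA4 also known from arterial vessels, read 9.85, 9.46, 9.86 and 9.62 on the day 4 arrays and 10.96, 10.97, 10.99 and 10.76 on the day 16 arrays. It rose by 1.31 ± 0.20 without (adjusted p = 0.000639) and 1.14 ± 0.20 with the drug (0.000930). All day 16 arrays of these 3 genes lay above their day 4 arrays.

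The receptors differed among themselves. EPHA1, an A-class receptor of epithelia, fell by 0.89 ± 0.21 log2 units in dox-minus cells, or 1.85-fold (limma adjusted p = 0.0105), and by 1.56 ± 0.21, or 2.95-fold, in dox-plus cells (0.000132). It read 10.74, 11.13, 11.05 and 11.43 on the day 4 arrays and 10.08, 10.01, 9.55 and 9.80 on those of day 16. The dox-minus call was lost without the second dox-minus day 4 array (adjusted p = 0.107). EPHB2 rose in dox-plus cells by 1.28 ± 0.19, or 2.43-fold (adjusted p = 0.000314), while its 0.46 ± 0.19 in dox-minus cells was not called (0.123). Its second probe was called in both arms, at 0.91 ± 0.21 and 1.11 ± 0.21. EPHB3 was not called in dox-minus cells (0.82 ± 0.28, adjusted p = 0.0649). In dox-plus cells it was undetected at day 4, at 4.72 and 4.64, and detected at day 16, at 6.50 and 6.69. EPHA2 showed no called change, with 0.32 ± 0.25 and 0.04 ± 0.25 and overlapping arrays.

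Over the same days, 6 of 8 pluripotency markers fell in each arm, while SOX2 rose in dox-plus cells. Of 8 neural progenitor markers 6 rose in dox-minus and 7 in dox-plus cells, where NES fell. Of 9 mesenchyme and mesoderm markers 8 and 7 rose, while TWIST1 fell in both arms and COL1A1 in dox-plus cells. Their summed signal was 36627 to 40005 at day 16 against 4813 to 5344 at day 4 in dox-minus cells, and 9102 to 9175 against 3749 to 5344 in dox-plus cells. The part of these shifts in the values of the family was not tested.

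**Figure D3:**
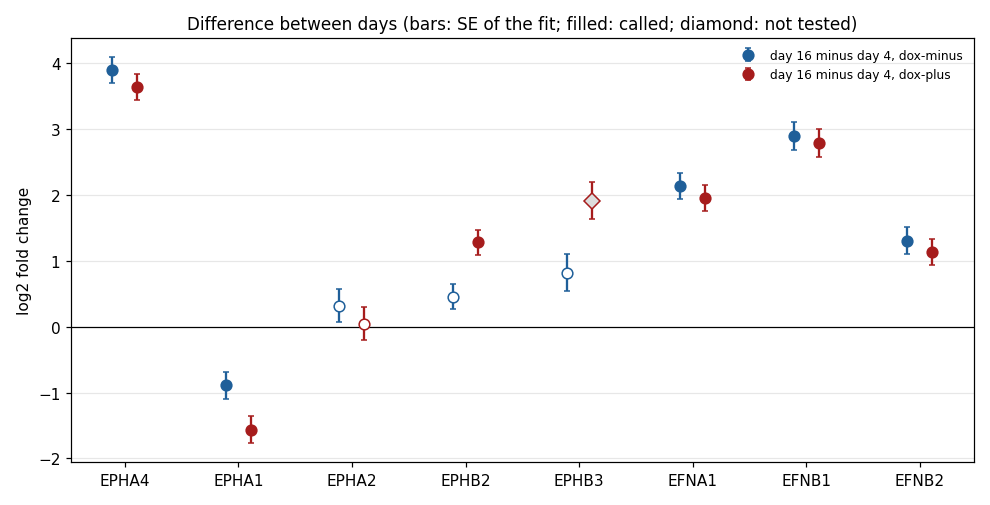
Log2 difference between day 16 and day 4 (vertical axis) for the 8 tested members (horizontal axis) in dox-minus and dox-plus cells, with bars of 1 SE of the limma fit. Filled circles passed an adjusted p under 0.05, and the grey diamond is EPHB3 in dox-plus cells, which was not tested. EPHA4 is highest at 3.90 and 3.64, EFNB1 follows, and EPHA1 lies below 0 at -0.89 and -1.56.

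EPHA3 and EPHA7, receptors of A-class ephrins known from axon guidance, were not detected on any of the 12 arrays. The smallest detection p was 0.0299 over the 3 probes of EPHA3 and 0.266 for the 1 probe of EPHA7. An undetected probe does not show that the gene was not transcribed.

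Of the 12 other Eph receptors and ephrins, 7 were tested: EPHA8, EPHA10, EPHB1, EPHB4, EPHB6, EFNA4 and EFNB3. EPHA5, EPHA6, EFNA2, EFNA3 and EFNA5 were not. None of the 7 was called at day 4 or after knockdown by limma, and 1 and 0 passed an unadjusted p under 0.05, beside 13.9% and 10.2% of all genes. At day 16, 1 of the 7 was higher with doxycycline, a share near the 13.7% of all genes. It was the receptor EPHB1, which read 7.51 and 7.04 against 6.22 and 6.76. Its difference of 0.79 ± 0.23 (adjusted p = 0.0394) was lost without the first array of either group (0.277 and 0.322) and under 7 of 13 other alternatives. EFNB3, a transmembrane ligand that stops axons at the spinal midline in mice, rose with time by 1.02 ± 0.18 in dox-minus (adjusted p = 0.00198) and 1.39 ± 0.18 in dox-plus cells (0.000116). EPHB4, the known receptor of EFNB2 in veins, ranged from 10.004 to 10.45 on the 12 arrays.

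A list of 35 genes linked to signalling by Eph receptors or ephrins, such as adaptors, kinases and exchange factors, was examined in the same fit. Of these, 33 were tested, with medians of -0.05 at day 4, -0.15 at day 16 and 0.06 after knockdown. In it limma called 0 at day 4 and 0 after knockdown, with 0 and 2 at an unadjusted p under 0.05, beside 13.9% and 10.2% of all genes. At day 16, 1 of the 33 was lower with doxycycline, where 7.63% of all genes were. It was the focal adhesion adaptor BCAR1, by -1.15 ± 0.24 (adjusted p = 0.00827). Its call was lost without the first array of either group (0.0622 and 0.0678).

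With time, 2 of the 33 signalling genes rose and 1 fell in dox-minus cells, where 18.1% of all genes were called. In dox-plus cells 4 rose and 3 fell, where 36.6% were called. ANKS1A, an adaptor that binds activated Eph receptors, rose in both arms, by 1.40 ± 0.19 (limma adjusted p = 0.000316) and 1.04 ± 0.19 (0.00147). In dox-minus cells the adaptor NCK1 rose by 0.69 ± 0.20 (adjusted p = 0.0336) and the focal adhesion protein PXN fell by 0.77 ± 0.24 (0.0417). With no array left out, the NCK1 call was lost under 4 of 13 alternatives and the PXN call under 7. In dox-plus cells the Rac exchange factor TIAM1 rose by 0.91 ± 0.22 (adjusted p = 0.00698) and the Src family kinase FYN by 0.82 ± 0.21 (0.00904). With the mean of the FYN probes the difference was 0.01 (adjusted p = 0.959). BCAR1 fell by 1.20 ± 0.24 (adjusted p = 0.00272), the exchange factor VAV3 by 1.05 ± 0.25 (0.00754) and the adaptor CRK by 0.78 ± 0.20 (0.00922). Except for ANKS1A, BCAR1 and VAV3, each of these calls was lost without at least 1 array.

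The genes whose pattern was most like that of EPHA4 were found by Pearson's r of normalized log2 signal with EPHA4 over the 12 arrays, among 15649 other genes. The arrays fall into 6 groups and share the day and the perturbation, so r is a description. The 5 most alike were LPAR1, a receptor of lysophosphatidic acid, at 0.987, IGDCC4, an immunoglobulin superfamily membrane protein, at 0.977, PAMR1 at 0.971, SHISA2 at 0.970 and TAC3, the precursor of neurokinin B, at 0.962. LHX2 came 6th at 0.959, which is not independent, since EPHA4 was picked for its differences with LHX2. Without the day 4 arrays r was 0.968 for LPAR1 and 0.925 for LHX2 over 8 arrays. LPAR1 read 5.70 and 5.91 in dox-minus and 6.68 and 6.69 in dox-plus cells at day 4, 8.09 and 8.45 against 9.35 and 9.31 at day 16, and 7.11 and 7.23 in shLHX2 against 7.89 and 7.78 in shLuc cells. Its perturbed and control arrays did not overlap in any of these 3 comparisons. LPAR1 was picked for its likeness to EPHA4, which was picked for these differences, so the separation is a description too. In the knockdown the arrays did not overlap in 48% of all genes, and for the doxycycline comparisons that share was not counted.

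Within the family, EFNB1 was most like EPHA4, at rank 17 with r of 0.942, and 0.836 without the day 4 arrays. EFNB2 (0.829, rank 357), EPHB2 (0.811, rank 473), EPHB3 (0.796, rank 583) and EFNA1 (0.739, rank 1027) followed. EPHA2 had r of 0.06 over the 12 arrays (rank 7075) but 0.80 without the day 4 arrays, and EPHA1 ran opposite (-0.71, rank 14225). For EFNA1 the value without the day 4 arrays was 0.20, and its 3 perturbation differences, none of them called, had the sign opposite to those of EPHA4.

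**Figure D4:**
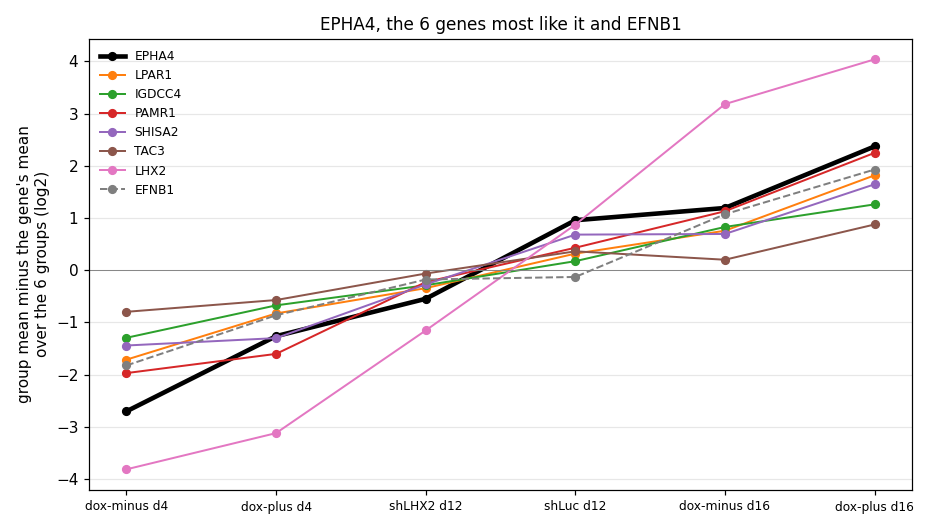
Group mean of normalized log2 signal minus the gene's own mean over the 6 groups (vertical axis) for EPHA4, the 6 genes most like it and EFNB1, with groups ordered by the EPHA4 mean (horizontal axis). Each line is lowest at dox-minus day 4 and highest at dox-plus day 16, and EFNB1 (dashed) is level between shLHX2 at 6.95 and shLuc at 6.997.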

How the data were processed

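Each of 12 H9 cultures was measured on 1 Illumina bead array. Per the file headers, the authors deposited for each probe a mean bead intensity and a detection p-value, with a bead standard error and bead number that were not tested. Array medians of 73.1 to 89.2 show no scaling between arrays. Scanner software, background subtraction, slide and genome build are not given in the sources used here. In the series table the same intensities recur, with its 2 shLuc columns exchanged.

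With limma 3.58.1 (R 4.3.3), background was removed by normexp (controls inferred from the detection p-values, offset 16), followed by quantile normalization and log2. RefSeq identifiers matched 35670 of 47227 probes, and 3270 had none. Probes needed a detection p below 0.01 on both arrays of a group (21526 probes, 807 without a gene), and each of 15650 genes took its brightest. One fit of 12 arrays, with a mean per group, had 6 residual and 5.94 prior degrees of freedom, and Benjamini-Hochberg adjustment covered all 15650 genes. Where neither array of a group detected a gene, the fold is a lower bound against the lowest signal among detected probes there.

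Members, lists and named-gene rule were chosen with earlier results of these data known, so no count over them is independent support. Named genes are the members, the rest of the family, LHX2, up to 3 called signalling genes per direction and comparison, and the 6 genes most like EPHA4. Replicate numbers were not taken as pairs, since same-numbered deviations correlated at 0.33 (day 4), -0.58 (day 16) and 0.07 (knockdown). On simulated data with 200 of 15650 genes changed, the fit recovered 43%, 45% and 44% of genes changed by a log2 of 1 at day 4, at day 16 and in the knockdown. Of the simulated calls, 5.44%, 4.29% and 4.26% were false. The share changed was the same in each, unlike the shares called in the data, so these rates do not give the power of the real comparisons. The number of arrays limits the precision. The alternatives are listed in the closing section.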

Additional observations from a re-analysis of the deposited data

How the results depend on the processing

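The 3 perturbation differences of EPHA4 kept their direction under the alternatives that can move them (background, offset, scaling, series table, left-out arrays). Before leaving out arrays they were 0.98 to 1.65 at day 4, 1.07 to 1.18 at day 16 and -1.69 to -1.36 for the knockdown. The other alternatives (filter, probe rule, spread, weights, subset, block, threshold) leave this difference of group means unchanged for a gene with 1 probe. EPHA4 was chosen by these differences, so their direction is a description. The day 4 count of 1 member fell to 0 with no background correction, offset 50, cyclic loess, no detection filter, a trended robust spread, array weights, only the groups compared, an adjusted p under 0.01 and the replicate block (EFNB1 adjusted p = 0.0662), and was 0 to 0 over left-out arrays. On the series value table it stayed 1, but the member was EPHA1 (0.56, adjusted p = 0.0488), and EFNB1 was lost (0.0693). The block changed no other count of members. The day 16 count of 2 was 0 with only the groups compared and under an adjusted p of 0.01. It was 3 with no background correction, offset 50, the mean of probes and the trended robust spread. EPHB3 was within these counts, made with no array left out, but passed in none of them. Over left-out arrays the day 16 difference was 0.65 to 1.06 for EFNB1, 0.63 to 0.94 for EPHB2 and 0.54 to 1.22 for EPHB3. As given above, the EFNB1 and EPHB2 calls depended on single arrays. The count for the difference of the doxycycline effects was 1, not 0, on the series value table (EPHA1, -0.89, adjusted p = 0.0198). Over left-out arrays the time counts were 4 to 6 (dox-minus, 5 as reported) and 7 to 7 (dox-plus, where 7 includes EPHB3). Signs turned for the following differences. EPHB2 at day 4 was 0.15 with median scaling, 0.21 on the series table and 0.28 for the mean of its probes, and -0.14 to 0.058 over left-out arrays. The day 4 ranges over left-out arrays were -0.33 to 0.37 for EPHA2 and -0.11 to 0.28 for EFNB2, and that of EFNB2 at day 16 was -0.20 to 0.027. In the knockdown EPHB3 was -0.0085 on the series table and -0.17 to 0.52 over left-out arrays, and EFNB1 was -0.19 to 0.093. EPHA2 with time in dox-plus cells was -0.085 with median scaling, -0.13 on the series table and -0.31 to 0.39 over left-out arrays. For the difference of the doxycycline effects, EPHA4 was 0.16 with no background correction and 0.0019 with offset 50, and EFNB1 was 0.28, 0.20 and, on the series table, 0.14. Over left-out arrays that difference was -0.32 to 0.11 for EFNB1, -0.36 to 0.026 for EFNB2 and -0.63 to 0.073 for EPHA2. The third member was EFNA1 (adjusted p = 0.0256 to 0.0459). Median scaling and the unnormalized series table moved the median of all genes at day 4 to 0.15 and 0.22 and in the knockdown to -0.13 and -0.17. With these scalings 28 of 98 and 9 of 55 knockdown calls were higher (39 of 85 as reported), 1527 of 2462 and 1437 of 2042 in dox-minus cells with time (1519 of 2826), 2149 of 5520 and 1678 of 5216 in dox-plus cells (2780 of 5733), and 341 of 1204 and 197 of 1129 for the difference of the doxycycline effects (494 of 1225). The cause of these changes was not tested. With 1 array left out, the lone array of a group was assumed to vary like the others. Detection limits EFNB1, EPHB3 and LHX2 in the day 4 groups.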
